A study of Mus musculus with 14 samples.

Results

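CD8 T cells were examined in 5 white nodules that the paper assigns to cKO mice and whose B cell receptors had been profiled. The cells were chosen by measured transcripts. A cell was taken as a CD8 T cell when at most 10% of its unique molecular identifiers (UMIs, each standing for 1 captured transcript) were mitochondrial, when it held at least 1 UMI of Cd3d, Cd3e or Cd3g, which encode CD3 chains of the T cell receptor complex, and at least 1 of Cd8a or Cd8b1, which encode the CD8 coreceptor, and when it held none of Cd4 and none of the B cell genes Cd79a, Cd79b and Ms4a1. This gave 1810 cells of the 51694 that passed the mitochondrial limit in the 5 nodules, and of 77442 deposited cells in all 7 nodules of the study. These genes chose the cells, so their levels are a description.

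The mice were Eif3e fl/fl Cγ1Cre animals, or hosts given tumor cells or marrow of such animals, and all were on the C57BL/6J background. Cre in the Eif3e fl/fl Cγ1Cre animals is made from the Cγ1 locus. The floxed gene, for the eIF3e subunit of the translation initiation factor eIF3, is removed in activated B cells. It is not removed by design in T cells. The nodules came from the liver of mouse 27 (12 mo old), the lung of mouse 29 (12 mo), the spleen of mouse 31 (13 mo), the thymus of mouse 33 (16 mo) and the lung and thymus of mouse 34 (9 mo, labelled LungThy). A Rosa26-YFP reporter allele is listed for mice 29, 31 and 34 and not for mice 27 and 33. The liver nodule was a secondary tumor, raised in a Rag2-/- recipient that lacks T and B cells of its own. The nodule of mouse 34 came from a bone marrow chimera made with a mix of JHT and cKO marrow. For chimeras of this mix, the paper used irradiated Rag2-/- recipients. It states that immune cells other than B cells came mostly from the JHT marrow and were wild-type. By design, the T cells of the secondary tumor came from the donor. Donor and host cells were otherwise not told apart here, nor were JHT and cKO marrow cells of mouse 34. Each nodule was 1 library of 1 mouse, and the site differed with the mouse. No healthy or Cre-negative nodule was analysed here. Site, age, mouse, transplantation and the chimera therefore cannot be told apart.

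CD8 T cells recognize peptides on MHC class I through an αβ T cell receptor and kill target cells by releasing perforin and granzymes from cytotoxic granules. Naive cells carry CCR7 and the factors TCF1 and LEF1, whereas antigen-experienced cells switch on granzymes, the chemokine CCL5 and, to varying degrees, inhibitory receptors such as PD-1. Granzyme K with the factor EOMES is known from memory-like CD8 T cells of inflamed tissue and tumors, and granzyme B with perforin from effector cells.

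The CD8 share differed widely among the nodules. Mouse 27 had 110 CD8 T cells, or 1.17% of its cells (95% Clopper-Pearson interval 0.963% to 1.41%). In mouse 29 there were 268, or 1.90% (1.68% to 2.14%), and in mouse 31 there were 69, or 0.607% (0.473% to 0.768%). The thymus nodule of mouse 33 held 1096, or 11% (10.4% to 11.6%), and mouse 34 held 267, or 3.89% (3.44% to 4.37%). The mean was 3.71% ± 4.25 (SD, n = 5), or 1.89% without mouse 33, and 60.6% of all the CD8 T cells came from mouse 33. No 2 of the 5 intervals overlapped, but these intervals, like all intervals here, cover counting error only.

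As a share of T cells the order changed. Of the cells with a CD3 UMI and no B cell UMI, 25.3%, 10.8%, 11.1%, 37.1% and 38.4% were CD8 T cells in mice 27, 29, 31, 33 and 34, a mean of 24.6% ± 13.4 (SD, n = 5). Mice 33 and 34, and mice 29 and 31, had overlapping intervals. Conventional CD4 T cells (CD3 and Cd4 UMIs, none of Cd8a, Cd8b1, the regulatory T cell factor Foxp3 or the B cell genes) numbered 113, 362, 117, 701 and 133, listed by mouse as above. The ratio of CD8 to conventional CD4 T cells was therefore 0.973, 0.740, 0.590, 1.56 and 2.01, above 1 only in mice 33 and 34. A further 3812 T cells had neither Cd4 nor CD8 UMIs and remain unassigned. By mouse as above they were 211 of 434, 1844 of 2492, 422 of 621, 1061 of 2952 and 274 of 695 T cells. These cells count among the T cells, so the shares are of T cells with a CD8 UMI rather than full CD8 counts. Mice 29 and 31, with the lowest shares, had most of their T cells unassigned. The part of missed coreceptors in the order of the nodules was not tested. In the nodules of mice 30 and 32, whose T cell receptors were profiled, the same rule gave 72 and 308 CD8 T cells, 1.04% and 4.18% of their T cells.

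**Figure D1:**
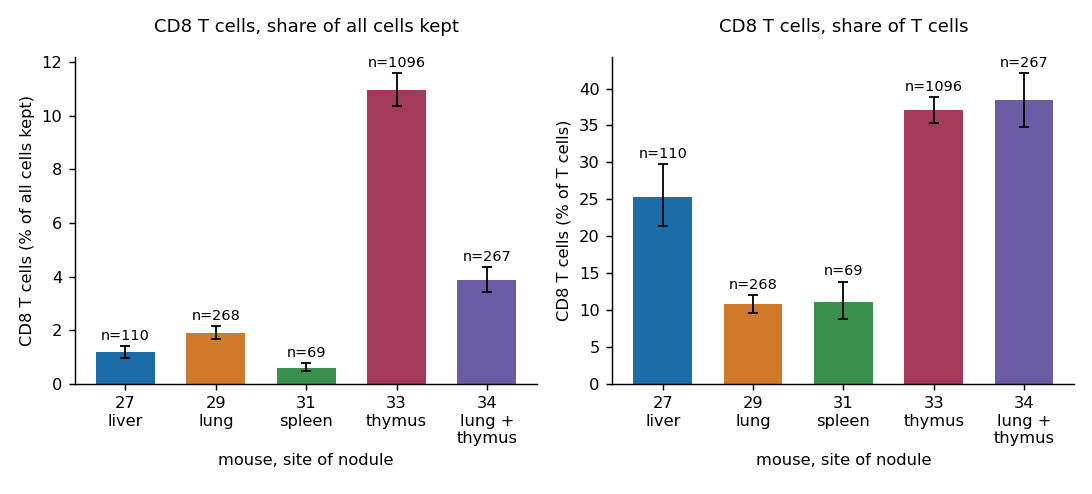
CD8 T cells of each nodule as a percentage of all cells kept (left) and of T cells (right). Bars are single nodules, error bars are 95% Clopper-Pearson intervals, and the number of CD8 T cells stands above each bar. The thymus nodule of mouse 33 is highest on the left at 11%, and mice 33 and 34 are both high on the right at 37.1% and 38.4%.

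The cells just at the edge of the rule were counted. Of the CD8 T cells, 471 (26.0%) were placed by a single CD8 UMI, from 18.2% in mouse 33 to 53.4% in mouse 29, and 216 held a single CD3 UMI. Just outside the rule, 109 cells differed only by a Cd4 UMI, 247 only by having no CD3 UMI, and 417 only by a B cell UMI, of which 213 held exactly 1. No cell was kept out by the mitochondrial limit alone. Among 21841 B cells (at least 2 UMIs of the B cell genes and no CD3 UMI), 118 held a CD8 UMI.

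Depth per cell differed between nodules, with a median of 1783, 1592, 2304, 4631 and 3199 UMIs per CD8 T cell in mice 27, 29, 31, 33 and 34. The highest CD8 T cell had 39259 UMIs, and no doublet caller was used. Total UMIs per library ranged from 43039759 to 75088225 in the 5 nodules. None of the CD8 T cells had a B cell receptor contig, and 134 had a barcode that also occurs in another library (96 to 286 barcodes per pair of libraries). Mouse 29 stood apart. There, 129 of 268 CD8 T cells held a UMI of macrophage, neutrophil, erythroid or B cell genes, against 426 in all, and the neutrophil list (6 genes) reached 3924 CPM in its CD8 T cells, where it was 0 to 16.2 CPM in the other 4 nodules. The erythroid list (6 genes) was at 1374 CPM in mouse 29 and at 0 to 32.1 CPM elsewhere. CPM here means the counts per 1000000 UMIs, taken from UMIs summed over the cells of 1 kind in 1 nodule.

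Markers of T cells and of other lineages were then read in the chosen cells. Cd8b1 was found in 1628 of the 1810 cells and Cd8a in 1080, a description only, since these genes chose the cells. Trac, Trbc1 and Trbc2, the constant segments of the αβ receptor, were present in every nodule, with Trbc2 at 300, 218, 437, 389 and 523 CPM in mice 27, 29, 31, 33 and 34 and at under 2 CPM in B cells. Thymocyte genes were nearly absent: Rag1, Rag2 and Ptcra had no UMI in any CD8 T cell, also in the 2 nodules that involve the thymus, and Dntt had 2. The rule had left out cells with a Cd4 UMI, and so thymocytes in which both coreceptors were captured. These counts therefore do not test for thymocytes of that kind. The natural killer (NK) cell receptor Ncr1 had no UMI, and Klrb1c had 7 in 5 cells. The rule asked for a CD3 UMI, so this count is no independent check against NK cells. A gamma-delta receptor constant gene was seen in 428 cells, almost entirely as Tcrg-C2 and Tcrg-C4, while the delta constant gene Trdc had 15 UMIs in 5 cells. B cell genes outside the rule summed to 485 to 1198 CPM in CD8 T cells (13 genes), against 5485 to 21500 CPM in the B cells of the same nodules. The macrophage list (8 genes) reached 953, 527, 124, 195 and 332 CPM in mice 27, 29, 31, 33 and 34, and the macrophage gene Adgre1 was at 0 in all 5.

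Ccl5, a chemokine that draws T cells and macrophages, and Nkg7, a granule protein of killer lymphocytes, were found in most CD8 T cells of most nodules. To compare nodules of different depth, each cell was thinned at random to 1000 UMIs, which left 1735 cells and dropped 75 shallower ones. At that depth Ccl5 was seen in 76.5%, 70.3%, 47.6%, 92.3% and 74.5% of CD8 T cells in mice 27, 29, 31, 33 and 34, and Nkg7 in 76.5%, 36.7%, 68.3%, 86.0% and 70.3%. Without thinning the ranges were 52.2% to 97.3% for Ccl5 and 53.0% to 96.8% for Nkg7. Both were highest in mouse 33, and their lowest values fell in different mice, the spleen nodule for Ccl5 and the lung nodule for Nkg7.

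Gzmk, for granzyme K, and Eomes, for a T-box factor of memory and NK cells, were found in a smaller part of the cells. Gzmk was detected in 36.7%, 31%, 41.3%, 51.2% and 51.7% of thinned cells, a mean of 42.4% ± 9.05 (SD, n = 5), and Eomes in 21.4%, 21.0%, 36.5%, 28.8% and 24.7%, a mean of 26.5% ± 6.43. Unthinned, the means were 64.2% and 50.8%, so the share is bound to the depth chosen. The order of Eomes was led by the spleen nodule of mouse 31, but its 95% interval overlapped those of the other nodules.

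In B cells of the same nodules, which should lack these genes and were deeper (median 6372 to 9404 UMIs), a UMI of Gzmk was seen in 0.365% to 5.62% of cells, of Nkg7 in 0.291% to 6.06% and of Eomes in 0.139% to 1.42%, without thinning. For Ccl5 the B cell share was 2.56% to 12.4% in 4 nodules and 40.7% in mouse 33. The level of Ccl5 in the B cells of the thymus nodule was 156 CPM, and its CD8 T cells had 16388 CPM. B cells with a CD3 UMI had been left out, so these B cell shares may be too low as a background.

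**Figure D2:**
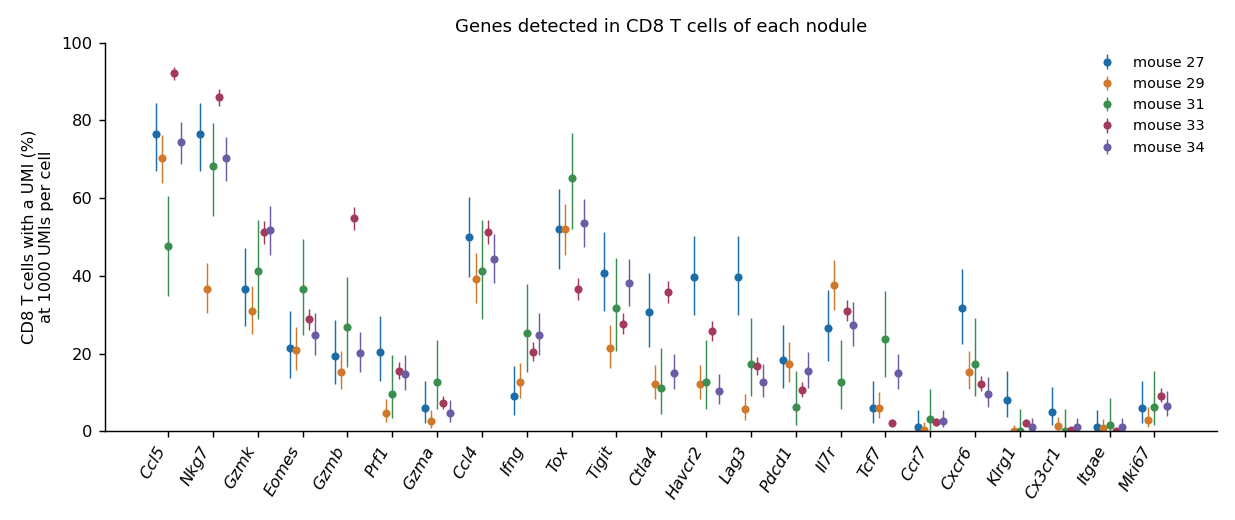
Percentage of CD8 T cells with at least 1 UMI of each gene after thinning to 1000 UMIs per cell, for selected genes in the 5 nodules. Points are single nodules and bars are 95% Clopper-Pearson intervals. Ccl5 and Nkg7 lie above most genes shown, the naive gene Ccr7 and the genes Klrg1, Cx3cr1 and Itgae lie near the bottom, and Gzmb separates mouse 33 (54.8%) from the others (15.3% to 27%).

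Among the other granule genes, Gzmb, for granzyme B, set mouse 33 apart. Its level was 385, 262, 578, 1386 and 469 CPM in mice 27, 29, 31, 33 and 34, and it was detected in 19.4%, 15.3%, 27%, 54.8% and 20.1% of thinned cells. The interval of mouse 33 did not overlap that of any other nodule. Gzma, for granzyme A, followed another order, with 312, 36.0, 632, 148 and 70.2 CPM, the highest value in the spleen nodule. Prf1, for the pore-forming protein perforin, stood at 264, 42.6, 100, 196 and 139 CPM, lowest in mouse 29. Gzmc and Gzmm were hardly seen, with 12 and 37 UMIs in all. Mouse 29 was the lowest of the 5 for Gzmb, Gzma, Prf1, Nkg7, Ctsw, Cst7 and Fasl, and its library is also the one with the neutrophil and erythroid transcripts, whose part in these levels was not tested.

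Granzyme K and granzyme B were seen both apart and together. At 1000 UMIs per cell, a UMI of both was found in 10.2%, 6.11%, 20.6%, 30.8% and 12% of CD8 T cells in mice 27, 29, 31, 33 and 34. Gzmk without Gzmb was found in 26.5%, 24.9%, 20.6%, 20.4% and 39.8%, and Gzmb without Gzmk in 9.18%, 9.17%, 6.35%, 24.0% and 8.11%. Cells with neither ranged from 24.8% in mouse 33 to 59.8% in mouse 29. In 4 of 5 nodules more cells had Gzmk alone than Gzmb alone, and in mouse 33 the interval for Gzmb alone (21.5% to 26.7%) overlapped that for Gzmk alone (18.1% to 23.0%). Since 1 transcript can be missed in a cell that holds it, these shares are of cells in which the transcripts were captured.

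Genes of naive and central memory T cells differed widely among the nodules. Ccr7, which guides T cells into lymph nodes, was at 56.8, 4.91, 88.5, 19.8 and 38.1 CPM. Ccr7 was seen in 1.02%, 0.437%, 3.17%, 2.3% and 2.7% of thinned CD8 T cells.

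Tcf7, for TCF1, ranged from 22.5 CPM in mouse 33 to 307 CPM in mouse 31, with 32.5, 68.8 and 159 CPM in mice 27, 29 and 34, and was found in 2.12% to 23.8% of thinned cells. Il7r, for the interleukin 7 receptor, was seen in 26.5%, 37.6%, 12.7%, 31% and 27.4% of thinned cells, lowest in the spleen nodule where Tcf7 was highest. Klf2, for a factor of T cell recirculation, was at 1263 CPM in mouse 31 and at 221 to 479 CPM in the other 4. Lef1 was at 177 CPM in mouse 34 and at 52.7 to 87.9 CPM in the others.

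Inhibitory receptors were carried by CD8 T cells of all nodules. Pdcd1, for PD-1, was found in 18.4%, 17.5%, 6.35%, 10.7% and 15.4% of thinned cells, Tigit in 21.4% to 40.8%, and Ctla4 in 30.6%, 12.2%, 11.1%, 35.8% and 15.1%. Lag3 and Havcr2, for LAG-3 and TIM-3, were highest in the secondary tumor of mouse 27. Lag3 was at 742 CPM there, and at 40.9, 142, 176 and 158 CPM in mice 29, 31, 33 and 34, and Havcr2 was at 759 CPM against 134, 159, 346 and 158 CPM. Tox, for a factor linked to chronic stimulation, was at 461 to 1269 CPM, but B cells of 4 of the nodules also held 185 to 477 CPM of it.

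Killer cell receptors were uneven across the nodules. Klrd1, for the CD94 chain, was at 385, 34.4, 100, 137 and 99.8 CPM, Klrk1, for the activating receptor NKG2D, at 312, 27.8, 5.90, 87.9 and 36.4 CPM, and Klrc1, for the inhibitory receptor NKG2A, at 276, 37.7, 59.0, 169 and 66.0 CPM. Mouse 27 was highest for all 3. Ly6c2, a surface protein of memory and effector cells, reached 453 CPM in mouse 33 against 23.6 to 93 CPM elsewhere. Markers of end-stage effector cells were scarce, with Klrg1 in 197 cells, Cx3cr1 in 66 and no UMI of S1pr5.

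Tissue residency genes gave a mixed picture. Cxcr6, a chemokine receptor of tissue T cells, was at 418, 196, 189, 111 and 106 CPM. It was found in 9.65% to 31.6% of thinned cells, highest in mouse 27, whose nodule was a secondary tumor. Itgae, for the integrin CD103, was found in 32 of 1810 cells, and Zfp683, for the residency factor HOBIT, in 4. Cd69, which holds T cells in tissue and also marks recent activation, was at 268, 326, 962, 306 and 524 CPM.

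Chemokines and cytokines varied by gene. Ccl4, a chemokine of activated T cells, was found in 39.3% to 51.3% of thinned cells, a narrower range than that of Ccl5. Ifng, for interferon γ, was found in 9.18%, 12.7%, 25.4%, 20.4% and 24.7%. Xcl1, a chemokine that draws cross-presenting dendritic cells, was at 649 CPM in the spleen nodule and at 37.7 to 130 CPM elsewhere. Il2 had 3 UMIs in all. Cell cycle genes were seen in a small part of the cells, with Mki67 in 3.06% to 9.21% of thinned cells and highest in mouse 33.

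Stress and immediate early genes separated the libraries more than the cell types. Hspa1a, a heat shock gene, was at 44.6, 1658, 927, 29.99 and 2.54 CPM in mice 27, 29, 31, 33 and 34, and at 42.1, 1967, 1331, 33 and 2.03 CPM in their CD4 T cells. The list of 9 such genes summed to 3550, 19039, 18127, 5339 and 6424 CPM in CD8 T cells of mice 27, 29, 31, 33 and 34. Mice 29 and 31 were thus high in both kinds of T cell, and the part of this in the differences between nodules given above was not tested.

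To see how the CD8 T cells differed from the CD4 T cells beside them, UMIs were summed per nodule for each kind and compared by edgeR's quasi-likelihood test with the mouse as a block, so that each nodule is its own control. Of 6292 genes tested, leaving out those of the rules, 64 passed a Benjamini-Hochberg adjusted p of 0.05 (1.02%), 25 of them higher (0.397%) and 39 lower (0.620%) in CD8 T cells. The balance of directions moved with the setting, to 14 higher and 8 lower when both coreceptors needed at least 2 UMIs and to 40 higher and 138 lower without mouse 27. The median log2 fold change of all genes was -0.0037. Higher were genes of killer cell receptors and granules, Klrk1, Klrd1, Klrc1, Gzma, Prf1 and Ctsw. Lower were Cd40lg, Tnfrsf4 and Tnfsf8, genes of T cell help and costimulation, and also Izumo1r. Other genes among the 39, chosen after their values were seen, were Itgb8 (log2 fold change -2.95), Cd81 (-2.34), Cd83 (-2.28) and Il1r2 (-1.83). Gm44174, listed between Cd8b1 and Cd8a in the gene table is among the 25 with a log2 fold change of 6.72.

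Of 12 effector and NK receptor genes, 7 could be tested, 4 rose and none fell, with a median log2 fold change of 1.85. Klrk1 was 2.65 ± 0.26 (SE) higher on the log2 scale (edgeR adjusted p = 0.000233), with 27.2, 7.46, 3.92, 17.8 and 4.06 CPM in CD4 T cells. Klrd1 was higher by 2.54 ± 0.29 (edgeR adjusted p = 0.00111), with 66.8, 2.13, 0, 37.7 and 12.2 CPM in CD4 T cells. Ly6c2 was higher by 2.55 ± 0.29 (edgeR adjusted p = 0.00114), with 12.4, 2.13, 0, 120 and 8.11 CPM in CD4 T cells. These 3 were higher in CD8 T cells in 5 of 5 nodules and passed with each mouse left out in turn. Klrk1 was not among the genes tested with at least 2 coreceptor UMIs or in cells with a Cd8b1 UMI and no gamma-delta UMI. Neither Klrk1 nor Ly6c2 was among those tested without cells holding UMIs of other lineages. For Klrk1 the direction in mouse 31 rests on very few UMIs. There it was at 5.90 CPM of 169413 summed UMIs in CD8 T cells against 3.92 CPM of 255362 in CD4 T cells. Klrc1 was higher by 1.85 ± 0.36 (edgeR adjusted p = 0.0312) in 5 of 5 nodules, but failed the threshold without mouse 29, 31, 33 or 34, with at least 2 coreceptor UMIs, and in cells with a Cd8b1 UMI and no gamma-delta UMI.

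Of 12 cytotoxic granule genes, 10 were tested, 3 rose and none fell, with a median of 0.89. Gzma was higher by 2.45 ± 0.39 (edgeR adjusted p = 0.0092), with 71.8, 10.7, 3.92, 36.6 and 26.4 CPM in CD4 T cells, all below the CD8 value of the same nodule, though DESeq2 gave it an adjusted p of 0.0698. Prf1 was higher by 1.44 ± 0.26 (edgeR adjusted p = 0.0210) and failed without mouse 29, 31 or 34 and with at least 2 coreceptor UMIs. Ctsw, for a protease of killer lymphocytes, was higher by 1.02 ± 0.17 (edgeR adjusted p = 0.0106) and failed without mouse 34. Gzmb had a log2 fold change of 1.13 (95% interval 0.06 to 2.20) and did not pass (edgeR adjusted p = 0.432), with CD4 levels of 408, 6.39, 168, 804 and 521 CPM that were above the CD8 level in mice 27 and 34.

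None of the 4 markers given with the cells and not used to choose them passed. Nkg7 had a log2 fold change of 1.37 (0.62 to 2.11, edgeR adjusted p = 0.0939), Eomes 1.06 (0.38 to 1.74, edgeR adjusted p = 0.171), Ccl5 1.04 (0.36 to 1.72, edgeR adjusted p = 0.182) and Gzmk 0.63 (-0.07 to 1.32, edgeR adjusted p = 0.538). The levels in the CD4 T cells showed where the cells overlapped. Gzmk was at 609, 69.2, 591, 805 and 473 CPM in CD4 T cells of mice 27, 29, 31, 33 and 34, against 446, 368, 567, 824 and 986 CPM in CD8 T cells, so only mice 29 and 34 showed a clear gap. Ccl5 was at 6981, 732, 8521, 14061 and 3949 CPM in CD4 T cells against 8086, 5015, 11469, 16388 and 10260 CPM in CD8 T cells. Conventional CD4 T cells of 4 nodules thus also held Gzmk, Ccl5, Nkg7 and Eomes, and those of the lung nodule of mouse 29 held the least. DESeq2 passed Nkg7 (adjusted p = 0.0101), as did the edgeR fits without mouse 27 (0.0309) and without mouse 33 (0.0416), and Eomes passed without mouse 27 (0.0491). With no filter on low counts all 4 passed in edgeR, Nkg7 with an adjusted p of 2.18e-18, Ccl5 with 1.1e-13, Eomes with 1.7e-08 and Gzmk with 0.00152. Ccl5 and Gzmk passed in no other setting tried. Dropping the filter lowered the p-values without larger differences. Gzma, for example, went from an edgeR adjusted p of 0.0092 to 1.7e-31 at log2 fold changes of 2.45 and 2.48. These p-values therefore do not mark a stronger difference of the 4 markers.

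**Figure D3:**
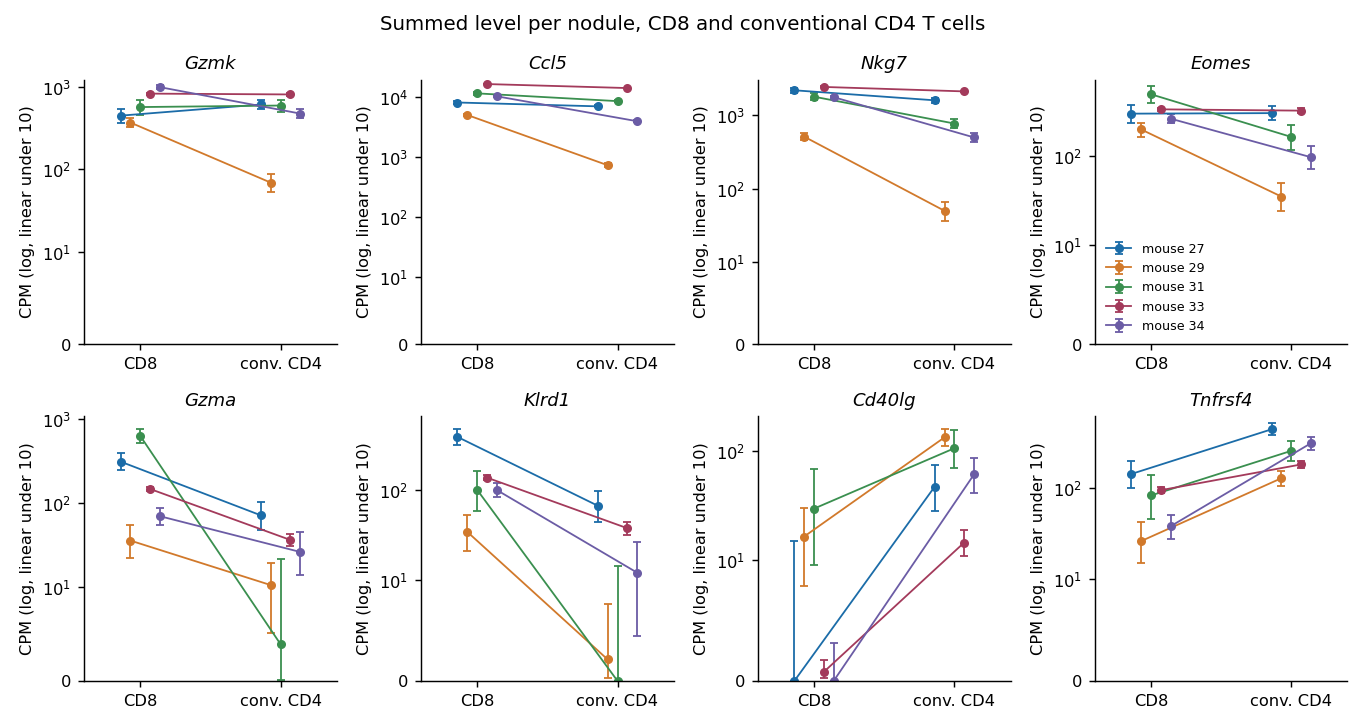
Level of 8 genes in CD8 and conventional CD4 T cells, in CPM of summed UMIs, on a log axis that is linear under 10. Each line joins the 2 kinds of cell of 1 nodule and bars are exact Poisson 95% intervals, which cover counting error only. The lines for Gzma and Klrd1 fall and those for Cd40lg and Tnfrsf4 rise from CD8 to CD4 in all 5 nodules, while the lines for Gzmk and Eomes lie nearly flat in some.

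Among the CD4 lineage and helper genes, 8 of 11 could be tested, 4 fell and none rose in CD8 T cells, with a median log2 fold change of -1.34. Cd40lg, for the ligand by which helper T cells activate B cells, fell by 3.63 ± 0.46 on the log2 scale (edgeR adjusted p = 0.00224), with 47.0, 133, 106, 14.4 and 60.9 CPM in CD4 T cells and 0, 16.4, 29.5, 0.746 and 0 CPM in CD8 T cells. Tnfrsf4, for the costimulatory receptor OX40, fell by 1.74 ± 0.26 (edgeR adjusted p = 0.00711), from 438, 128, 255, 181 and 308 to 142, 26.2, 82.6, 94.4 and 38.1 CPM. Both passed with each mouse left out in turn and were lower in 5 of 5 nodules. Cd40lg was not among the genes tested with at least 2 coreceptor UMIs or without cells holding UMIs of other lineages. Izumo1r, for folate receptor 4, was lower in 4 of 5 nodules, with a log2 fold change of -2.37 ± 0.33 (edgeR adjusted p = 0.00524). Tnfsf8, for CD30 ligand, had -2.17 ± 0.36 (edgeR adjusted p = 0.0106) and failed without mouse 29 and with at least 2 coreceptor UMIs.

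Ikzf2, for the factor HELIOS of regulatory T cells, was at 379, 936, 909, 110 and 359 CPM in the conventional CD4 T cells and at 312, 188, 100, 53.0 and 245 CPM in CD8 T cells (log2 fold change -1.29, edgeR adjusted p = 0.0797), although Foxp3-positive cells were left out. The part of such cells in the genes lower in CD8 T cells was not tested. Il10, for interleukin 10, was lower in CD8 T cells by a log2 fold change of -1.37 ± 0.25 (edgeR adjusted p = 0.0210) in 5 of 5 nodules, and failed without mouse 31 or 33.

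The largest differences by the naming rule (the 10 highest and 6 lowest with the same direction in every nodule and a mean of at least 20 CPM) included genes outside the lists. Thsd7a, which encodes a membrane protein with thrombospondin domains, was at 0, 42.6, 0, 2.54 and 17.8 CPM in CD8 T cells and at 2.48, 371, 129, 21.1 and 101 CPM in CD4 T cells of mice 27, 29, 31, 33 and 34 (log2 fold change -2.94 ± 0.25, edgeR adjusted p = 6.96e-05). Ramp3, for a partner of calcitonin-family receptors, was at 0, 27.8, 5.90, 8.36 and 5.08 against 24.7, 131, 35.2, 31.1 and 54.8 CPM (-2.28 ± 0.29, edgeR adjusted p = 0.00224). Calcrl, for such a receptor, was chosen after its values were seen and had -1.01 ± 0.16 (edgeR adjusted p = 0.00885). Both genes were lower in 5 of 5 nodules and passed with each mouse left out. Cpm, for carboxypeptidase M, and Ppp2r3a, for a phosphatase subunit, had log2 fold changes of -2.62 and -1.99 and each failed without mouse 33 and without 1 other mouse.

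On the higher side, Fgf13, of the fibroblast growth factor family, was at 89.3, 99.9, 88.5, 43.3 and 77.8 CPM in CD8 T cells and at 12.4, 8.52, 23.5, 27.5 and 20.3 CPM in CD4 T cells (log2 fold change 1.86 ± 0.35, edgeR adjusted p = 0.0216). Every CD8 value lay above every CD4 value, but the call was lost without mouse 29, 31 or 34. Ms4a4b, a membrane protein of T cells, had 1.48 (edgeR adjusted p = 0.0150), Ier3, an early response gene, 1.23 (edgeR adjusted p = 0.0141), and Sidt1, for an RNA-binding transmembrane protein, 1.28 (edgeR adjusted p = 0.0470), each higher in 5 of 5 nodules and each lost without 2 or more of the mice. Hcst, for the DAP10 adaptor through which NKG2D signals, was also called, with a log2 fold change of 0.69 (edgeR adjusted p = 0.0388), and was chosen after its values were seen.

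**Figure D4:**
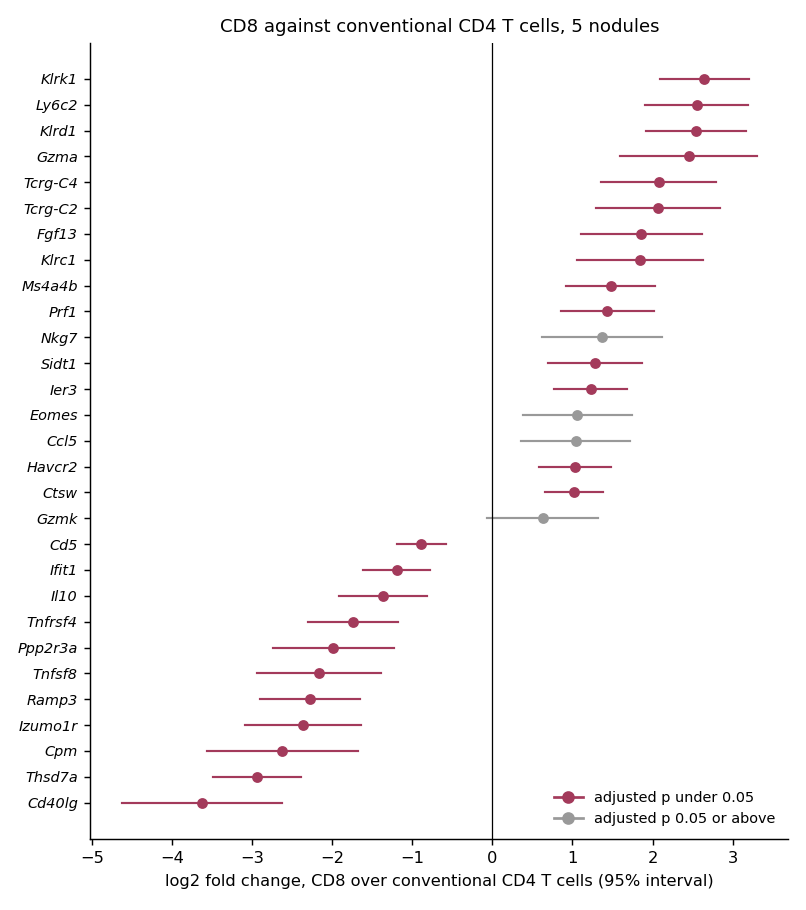
Log2 fold change of CD8 over conventional CD4 T cells for named genes, with 95% intervals from the edgeR fit over 5 nodules. Red marks an adjusted p under 0.05 and grey 0.05 or above. The killer receptor genes Klrk1 and Klrd1 lie at 2.65 and 2.54, Cd40lg lies at -3.63, and the 4 grey points are Nkg7, Eomes, Ccl5 and Gzmk.

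Few genes of the other lists passed. Of 8 inhibitory receptors tested, 1 rose: Havcr2, by 1.03 ± 0.21 (edgeR adjusted p = 0.0358) in 5 of 5 nodules, lost with any mouse but 33 left out, with at least 2 coreceptor UMIs, and in cells with a Cd8b1 UMI and no gamma-delta UMI. Ctla4 had -0.83 (95% interval -1.25 to -0.42, edgeR adjusted p = 0.0643) and Pdcd1 -0.27 (-0.63 to 0.08, edgeR adjusted p = 0.621). The median of the inhibitory receptors was 0.14.

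None of 13 memory and effector factors passed, with a median of 0.35. Tbx21, for T-bet, had a log2 fold change of 1.43 (0.72 to 2.15, edgeR adjusted p = 0.0645), Runx3, a factor of the CD8 lineage, 1.00 (0.47 to 1.53, edgeR adjusted p = 0.0817), and Tox 0.10 (-0.30 to 0.49, edgeR adjusted p = 0.978). None of 9 chemokine and receptor genes passed, where Xcl1 had 1.66 (0.88 to 2.44, edgeR adjusted p = 0.0523). None of 3 residency genes, 9 proliferation genes or 9 stress genes passed either. Among 7 interferon response genes, Ifit1 fell by 1.2 ± 0.19 on the log2 scale (edgeR adjusted p = 0.0092), with 77.1, 193, 519, 37.0 and 99.8 CPM in CD8 T cells and 203, 286, 1061, 142 and 268 CPM in CD4 T cells, and failed without mouse 34 and with at least 2 coreceptor UMIs. Among 12 genes of the T cell receptor complex, Cd5, a restraint on receptor signalling, had -0.89 ± 0.14 (edgeR adjusted p = 0.00919) in 5 of 5 nodules, and failed without mouse 29, 33 or 34.

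The gamma-delta constant genes Tcrg-C2 and Tcrg-C4 were the 2 of 7 on that list that could be tested, and both rose. Tcrg-C2 was at 48.7, 55.7, 76.7, 50.3 and 50.7 CPM in CD8 T cells and at 39.6, 3.20, 27.4, 11.4 and 10.1 CPM in CD4 T cells (log2 fold change 2.07 ± 0.36, edgeR adjusted p = 0.0143), and its call was lost without mouse 31, 33 or 34. Trdc was at 0 in CD8 T cells of 3 nodules, at 0.448 CPM in mouse 33 and at 10.1 CPM in mouse 34. Requiring a Cd8b1 UMI and no gamma-delta constant UMI in the fit left 56 genes called, of which 47 were among the 64. No gene of the B cell, macrophage or NK lists passed (5, 5 and 2 tested), and the thymocyte, neutrophil, dendritic and erythroid lists had no gene above the filter. Their sums still differed within nodules. The macrophage list was at 19.8, 940, 540, 624 and 36.5 CPM in the CD4 T cells, so CD8 T cells were above them in mice 27 and 34 and below them in the other 3. In mouse 29 the CD4 T cells had 1658 CPM of the neutrophil list and 44.7 CPM of the erythroid list, both below the CD8 values. Without cells holding UMIs of other lineages 50 genes were called, 41 of them among the 64.

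CD8 T cells with and without a Gzmk UMI were then compared within each nodule. Gzmk was detected, at full depth, in 57 of 110 CD8 T cells of mouse 27, 128 of 268 of mouse 29, 41 of 69 of mouse 31, 931 of 1096 of mouse 33 and 206 of 267 of mouse 34. Of 3732 genes tested, with Gzmk left out, edgeR called 0 (0%), while 598 (16.0%) had an unadjusted p under 0.05, 337 of them higher in Gzmk-positive cells. DESeq2 called 3: Lgals1 higher (1.22), and Klf4 (-1.24) and Prkca (-1.08) lower. The Gzmk-positive cells were deeper in 4 of 5 nodules, most in mouse 33 (median 5045 against 3063 UMIs), so that a missed transcript and a cell without it cannot be told apart.

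The values of genes on the lists are given as a description, since none passed. Granule genes were Gzmb with a log2 fold change of 1.26 ± 0.31 (edgeR adjusted p = 0.117) and Gzma with 1.59 ± 0.38 (edgeR adjusted p = 0.109). Gzmb was at 528, 302, 747, 1420 and 556 CPM in Gzmk-positive cells and at 165, 219, 299, 1002 and 45.0 CPM in Gzmk-negative cells of mice 27, 29, 31, 33 and 34, higher in 5 of 5 nodules. Ccl5 had 1.03 (95% interval 0.37 to 1.69, edgeR adjusted p = 0.149), with 9349, 5582, 16283, 16186 and 11907 CPM against 6138, 4412, 3459, 18703 and 2170 CPM, and was lower in the Gzmk-positive cells of mouse 33 only. Eomes had 0.22 (-0.17 to 0.62, edgeR adjusted p = 0.562), with 281, 181, 558, 340 and 289 against 330, 219, 393, 287 and 140 CPM, and did not keep 1 direction.

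All 7 naive and central memory genes tested had a negative log2 fold change, with a median of -0.89, where the median of all genes was 0.0064. Tcf7 was at 13.4, 79.5, 284, 18.7 and 103 CPM in Gzmk-positive cells and at 61.9, 57.4, 346, 66.7 and 435 CPM in Gzmk-negative cells (-1.30 ± 0.34, edgeR adjusted p = 0.118). Il7r was lower in the Gzmk-positive cells of 5 of 5 nodules (-0.97 ± 0.24, edgeR adjusted p = 0.117), with 281, 502, 66.2, 343 and 245 against 330, 655, 314, 571 and 790 CPM. Tcf7 went the other way in mouse 29 and passed without that mouse (-1.73, edgeR adjusted p = 0.0292).

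The 3 proliferation genes that could be tested, Mki67, Top2a and Ube2c, were all positive, with a median of 1.26. Top2a, for a topoisomerase of dividing cells, was at 127, 63.6, 47.3, 255 and 135 CPM against 82.5, 43.9, 31.4, 96.3 and 20.001 CPM (1.26 ± 0.27, edgeR adjusted p = 0.104). Ccr2, a chemokine receptor of effector cells and monocytes, had 1.32 ± 0.34 (edgeR adjusted p = 0.118). All 9 stress genes were negative, with a median of -0.46. The macrophage list was at 1545, 528, 56.7, 195 and 393 CPM in the Gzmk-positive cells of mice 27, 29, 31, 33 and 34 and at 41.3, 527, 236, 189 and 35.001 CPM in the Gzmk-negative cells, far higher with Gzmk in mice 27 and 34 and lower in mouse 31. Without cells holding UMIs of other lineages 22 genes were called. Thinning every cell to 1000 UMIs before the split, chosen after seeing the data, left 1631 genes tested and 2 called, Ccl5 (0.70, edgeR adjusted p = 0.00225) and Gm26917 (-1.03).

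**Figure D5:**
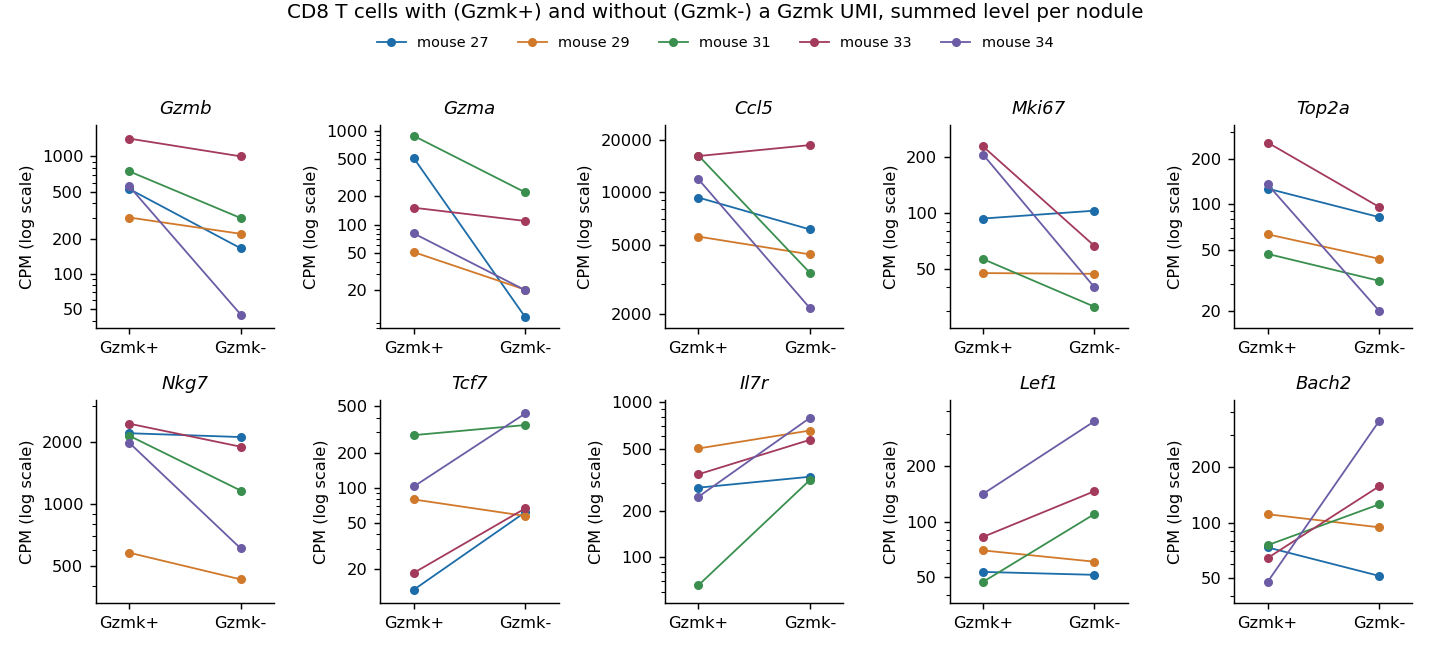
Level of 10 genes in CD8 T cells with a Gzmk UMI (Gzmk+) and without one (Gzmk-), in CPM of summed UMIs on a log axis. Each line is 1 nodule, and the genes were chosen after their values were seen. Gzmb, Gzma, Top2a and Nkg7 fall and Il7r rises from left to right in all 5 nodules, and no gene shown passed the adjusted p of 0.05.

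The T cell receptors of these 5 nodules were not profiled, so the use of the Trbv segments of the β chain was read from the RNA. Each cell was given the Trbv gene with most UMIs, out of 35 counted. In mouse 27, 26 of 67 CD8 T cells with a segment used Trbv3 (38.8%, 95% interval 27.1% to 51.5%), and among the cells with at least 2 UMIs of their segment the share was 29.4%. The leading segment of its CD4 T cells was Trbv13-1 at 16%. In mouse 31, 17 of 55 used Trbv14 (30.9%, 19.1% to 44.8%), and the share was 43.2% at 2 or more UMIs. CD4 T cells of mouse 31 were led by Trbv19 at 23.7% (14.7% to 34.8%), an interval that overlaps that of Trbv14.

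The other nodules were more even. Trbv20 led in mouse 29 at 18.2% of 110 CD8 T cells (Trbv15 at 28.2% with 2 or more UMIs), Trbv3 in mouse 33 at 11% of 894 and Trbv13-3 in mouse 34 at 11% of 218. In the T cell receptor nodules the leading segment of the CD8 T cells was Trbv1 at 15.9% in mouse 30, and in mouse 32 Trbv15 and Trbv26 stood at 19.0% each, whereas Trbv1 and Trbv26 took 78.9% and 91.7% of the CD4 T cells with a segment there. A segment is shared by many receptors, so these shares do not count clones, and the share of cells with a segment ran from 41.0% in mouse 29 to 81.6% in mouse 34.

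The transcript of Eif3e, the floxed gene, was present in the CD8 T cells. For B and CD4 T cells of the tumors, the paper reports no YFP and normal eIF3e protein. The B cells given here are therefore not a reference without Eif3e. Eif3e was at 162, 169, 148, 162 and 173 CPM in mice 27, 29, 31, 33 and 34, a mean of 163 ± 9.51 (SD, n = 5), against 173, 121, 117, 161 and 172 CPM in CD4 T cells and 230, 230, 173, 222 and 188 CPM in B cells. As a share of the UMIs of 13 eIF3 subunit genes it was 5.58%, 8.66%, 6.31%, 5.86% and 5.69% in CD8 T cells. The interval of mouse 29 (7.13% to 10.4%) lay above those of mice 33 (5.53% to 6.21%) and 34 (4.95% to 6.50%). CD8 against CD4 T cells, Eif3e had a log2 fold change of 0.20 (-0.11 to 0.51, edgeR adjusted p = 0.724), and none of the 13 subunit genes was called. A count over the whole gene does not show whether the floxed part is missing.

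In the CD8 T cells of mice 30 and 32, Gzmk was at 465 and 241 CPM, Ccl5 at 6190 and 9890 CPM, and Eomes at 290 and 133 CPM. Gzma was at 562 and 2334 CPM there, against 36.0 to 632 CPM in the 5 B cell nodules, and with 2 such nodules no test was made.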

How the data were processed

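Single-cell suspensions of the nodules were run on SeekGene droplets by the authors. The labels name only a 5′ kit and the methods a 3′ kit for RNA, so the captured end is unsettled. The deposited matrices hold raw UMI counts of 32285 genes in called cells, not normalized by the authors. The processing notes name GRCm38 and mm10, and the aligner and the rule for calling cells are not given in the sources used here. V(D)J contig tables, which give read and UMI counts as deposited, served only to look up barcodes with a B cell receptor contig. Cells were kept at up to 10% mitochondrial UMIs, the limit the study states.

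Members, lists and tests were chosen with earlier results of these data known. UMIs were summed per nodule and cell set with at least 20 cells, filtered with filterByExpr, scaled by TMM and tested in edgeR 4.0.16 (R 4.3.3) with mouse as a block and Benjamini-Hochberg adjustment over all genes. DESeq2 1.42.0 was an alternative. Both sets come from the same animal, and their deviations correlated within every mouse (r 0.313 to 0.716 for CD8 against CD4, 0.314 to 0.594 for the Gzmk split). With the mouse as a block, the p-values weigh the difference within a nodule against how much it varied over the single nodules of 5 mice. Named genes were the 4 markers Ccl5, Gzmk, Nkg7 and Eomes, the list genes, and the 10 highest and 6 lowest called genes with 1 direction in every nodule and a mean of at least 20 CPM, leaving out receptor segments, mitochondrial, Gm and Rik genes. Thinning drew 1000 UMIs per cell without replacement (numpy 2.4.6). Intervals are at 95%. The fits were tested on simulated data.

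A comparison with NK cells was planned. Of 150 cells that its gate took, 149 held Klrb1c, 4 Ncr1 and 116 the B cell gene Cd74, so they were not taken as NK cells and no fit was made. Gzmb-positive against Gzmk-positive cells could be set up in 1 nodule only and was not fitted. Some list genes are not reported here.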

Additional observations from a re-analysis of the deposited data

Results flagged for a closer look

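Of 56 values tested over the 5 nodules (the CD8 shares and list genes with a mean of at least 50 CPM), 8 had 1 nodule whose gap to its nearest neighbor took over 0.71 of the whole range (Dixon's test at 95%). For independent, normally distributed values, chance flags about 1 in 20 groups, or 2.8 of 56. Neither condition was checked for these values, which come from the same 5 nodules, so the 8 are not read as an excess over chance. All 8 lay on the high side. Mouse 27, the secondary tumor labelled liver, was high for Lag3 (742 CPM) and Klrk1 (312 CPM). It was also high for Areg, for the growth factor amphiregulin (576 CPM, against 5.92 to 32.7 CPM in the other 4). Mouse 31, the spleen nodule, was high for Klf2 (1263 CPM) and Xcl1 (649 CPM). Mouse 33, the thymus nodule, was high for Gzmb (1386 CPM) and Ly6c2 (453 CPM), and mouse 34 for Lef1 (177 CPM). In mouse 27 the macrophage list of its CD8 T cells was also the highest of the 5 (953 CPM), whose part in these values was not tested.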

How the results depend on the processing

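For CD8 against CD4 T cells, the 64 calls became 465 of 19643 genes with no filter on low counts, 22 when both coreceptors needed at least 2 UMIs, and 24 to 178 with 1 mouse left out: 178 without mouse 27, 24 without mouse 29, 40 without mouse 31, 72 without mouse 33 and 27 without mouse 34. Of the 64, 13 passed in all 5 of those fits. RLE size factors gave 63, DESeq2 86 (58 shared), cells with at least 1000 UMIs 54, and cells without UMIs of other lineages 50.

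The replicate block pairs the 2 cell sets of a mouse. For CD8 against CD4 T cells, with no replicate block 2 genes were called, Gm44174 and Fgf13. For the Gzmk split no block gave 0.

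The Gzmk split went from 0 calls to 210 with no filter, 3 with DESeq2, 1 with cells of at least 1000 UMIs (Klf4), 22 without cells holding UMIs of other lineages and 2 after thinning, an alternative added after seeing the data. With 1 mouse left out it gave 0 to 9 calls: 9 without mouse 29, 4 without mouse 34 and 0 without mouse 27, 31 or 33.

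The mean CD8 share was 24.6% of T cells in place of 3.71% of all cells. The mean share of cells with Gzmk was 64.2% unthinned and 27% at 500 UMIs, against 42.4%. No fold change of a named gene changed sign, while the calls for CD8 against CD4 T cells went from 25 higher and 39 lower to 14 and 8 with at least 2 coreceptor UMIs. The comparisons of CD8 with NK cells and of Gzmb-positive with Gzmk-positive cells were not run in any setting. The cause of these changes was not tested. Shallow cells limit the data, since 26.0% of the CD8 T cells rest on 1 coreceptor UMI.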
